A study of Sus scrofa with 36 samples.

Results

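The genes described are 8 markers of resident and general macrophages: the scavenger receptors CD163 and MRC1, the membrane receptors LYVE1 and TIMD4, the growth factor CSF1 and its receptor CSF1R, and the pan-macrophage and monocyte markers CD68 and CD14. They were chosen by pig gene symbol from the 25880 genes of the count table. All 8 were found, and all 8 passed the filter on low counts, which left 14537 genes to test. The rule itself used no measured value, but the members and gene lists were chosen with earlier results of these data known.

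Macrophages live in the wall of the heart from before birth, and after an infarct blood monocytes enter the injured wall and become macrophages there. Both clear dead cells, and they differ in the surface receptors they carry. In mouse hearts, self-renewing resident macrophages are known for TIMD4, LYVE1, MRC1 and CD163, whereas CD14 marks monocytes and CD68, a glycoprotein of late endosomes and lysosomes, marks phagocytes in general. Survival of the lineage depends largely on signalling through the receptor tyrosine kinase CSF1R, whose ligands are CSF1 and IL34.

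The RNA came from the left ventricle of Yorkshire-landrace pigs whose coronary branches were tied off for good, or which had sham surgery, at 14 days (Old) or 2 days of age (Young). Hearts were taken 1 week (Late) or 1 day (Early) later, which gave harvest ages of 21 days for Old Late, 9 days for Young Late, 15 days for Old Early and 3 days for Young Early pigs. Each of 12 infarcted pigs gave a library from the infarct zone (IZ) and another from the border zone (BZ), and each of 12 sham pigs gave 1 from the anterior wall, which makes 36 libraries in 12 groups of 3. The operation opened the chest, and every pig was given ketoprofen, an anti-inflammatory drug, and the antibiotic enrofloxacin, per the labels' protocols. Gene positions below are those of the deposited table, whose genome build is not given in the sources used here. Levels below are CPM, read counts over a library size scaled by trimmed mean of M values (TMM). Changes are log2 fold changes ± standard error (SE) from edgeR with 3 libraries per group, and a gene is said to rise, fall or be called only at a Benjamini-Hochberg adjusted p under 0.05 over all genes tested.

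Library totals ran from 8113200 to 39789874 counts, mitochondrially encoded genes took between 9.753% and 44.104% of a library, and RNA integrity numbers were 6.3 to 8.4. No pair of replicates agreed within sampling noise. As a check of the tissue label, 5 cardiomyocyte genes summed to 13920 to 41620 CPM in IZ, 23420 to 74320 CPM in BZ and 47190 to 69460 CPM in sham libraries, with border zone libraries overlapping both of the others. Young Early BZ replicate 2 stood apart from its replicates, with the highest total of the series, a mitochondrial share of 10.13% (26.29% and 29.943% in the other 2) and the highest cardiomyocyte sum, above every sham. With whole pieces of wall, fewer cells of a type and less RNA per cell cannot be told apart. Old Late libraries were all prepared in batch 3, Young Late had 1 library each of IZ, BZ and sham in batch 1 and 2 of each in batch 2, Old Early were all in batch 2 and Young Early all in batch 1.

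Every macrophage marker other than LYVE1 rose over sham in at least 1 of the 4 infarct zones, CD68 and CD163 in all 4, and more members were called at 1 week than at 1 day. In Old Late IZ 6 of 8 members rose, against 24.3% of all genes tested called higher. In Young Late IZ 7 of 8 rose (17.3% of all genes), in Old Early IZ 5 of 8 (18.9%) and in Young Early IZ 2 of 8 (14.8%), and no member fell in any of these comparisons. The median log2 change of the 8 members was 2.40 in Old Late, 2.42 in Young Late, 1.58 in Old Early and 0.52 in Young Early IZ, beside -0.045, 0.030, 0.00 and 0.075 for all genes tested.

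In the border zone 5 of 8 members rose in Old Late hearts (19.5% of all genes called higher), 5 in Young Late (8.66%) and 6 in Old Early (13.5%). None was called in Young Early BZ, where 0.647% of all genes were called higher. There 2 of 8 had an unadjusted edgeR p under 0.05, beside 17.9% of all genes, and neither DESeq2 nor limma with the animal as a block called any, nor was any called without BZ replicate 2. Median log2 changes over the 8 members were 1.33, 1.49, 1.57 and 0.45 across BZ of Old Late, Young Late, then Old Early and Young Early hearts. All 36 calls against sham, of 64 tests, came with no overlap between the 3 zone libraries and the 3 sham libraries. So did 96.3% of the calls over all genes in these 8 comparisons. Over all genes tested there, called or not, 45.6% had no overlap. Of the 20 calls in IZ, 18 held whichever single library was left out, and of the 16 in BZ, 8 did.

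**Figure D1:**
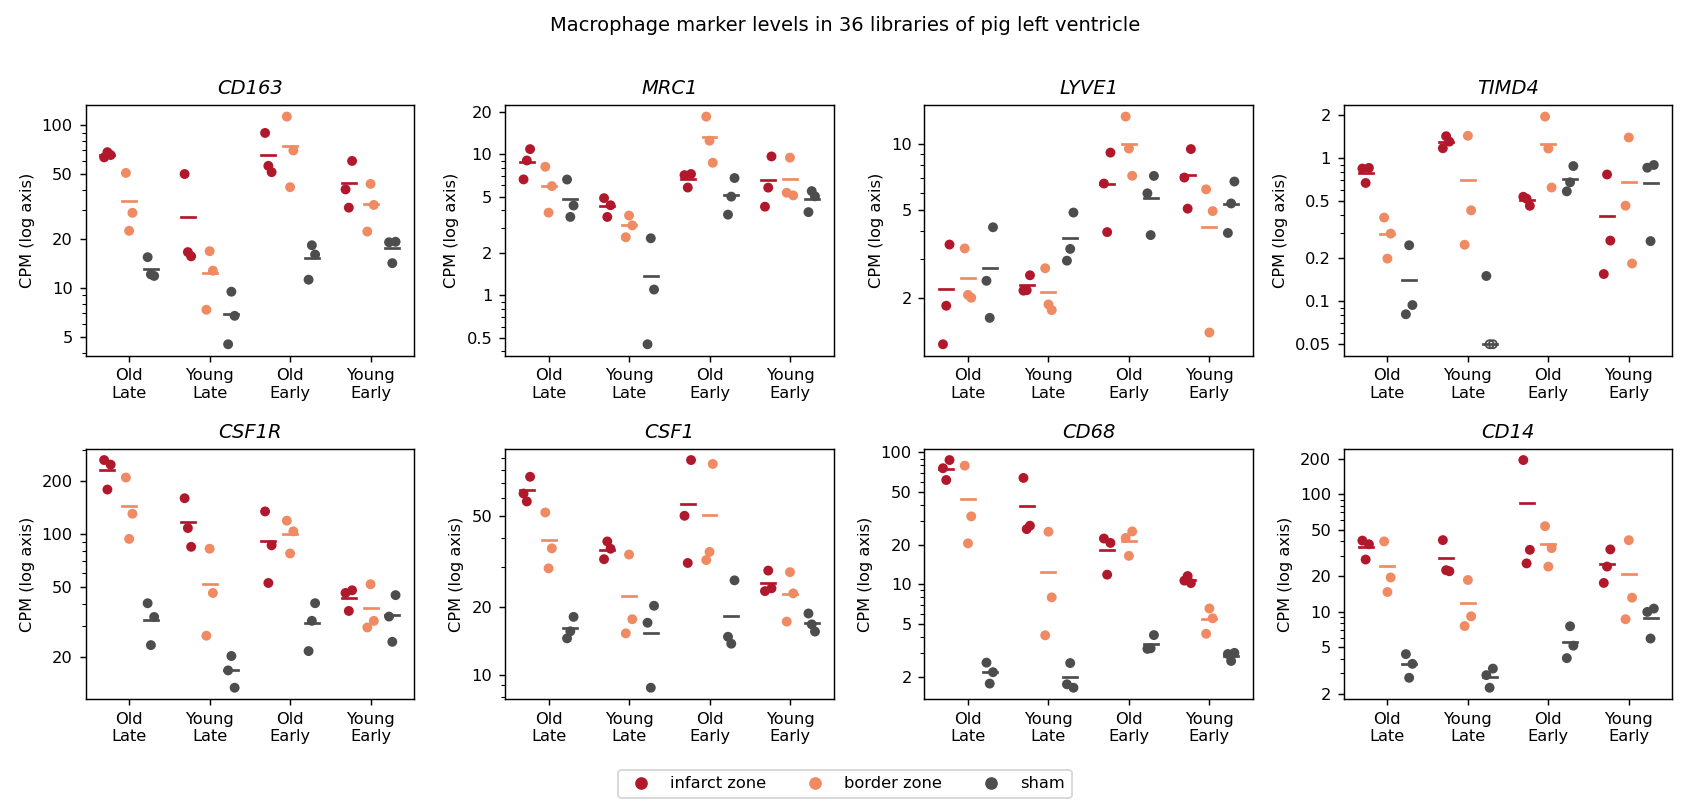
CPM on log axes of the 8 members in the 36 libraries, grouped by age at surgery and time, with infarct zone, border zone and sham side by side. Points are libraries, bars are group means, and hollow points mark libraries with no TIMD4 count, drawn at 0.05 CPM. The Old Late IZ libraries had 61.8 to 87.6 CPM of CD68, far above the 1.77 to 2.55 CPM of their shams, while the LYVE1 libraries of Old Late IZ and sham overlapped.

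**Figure D2:**
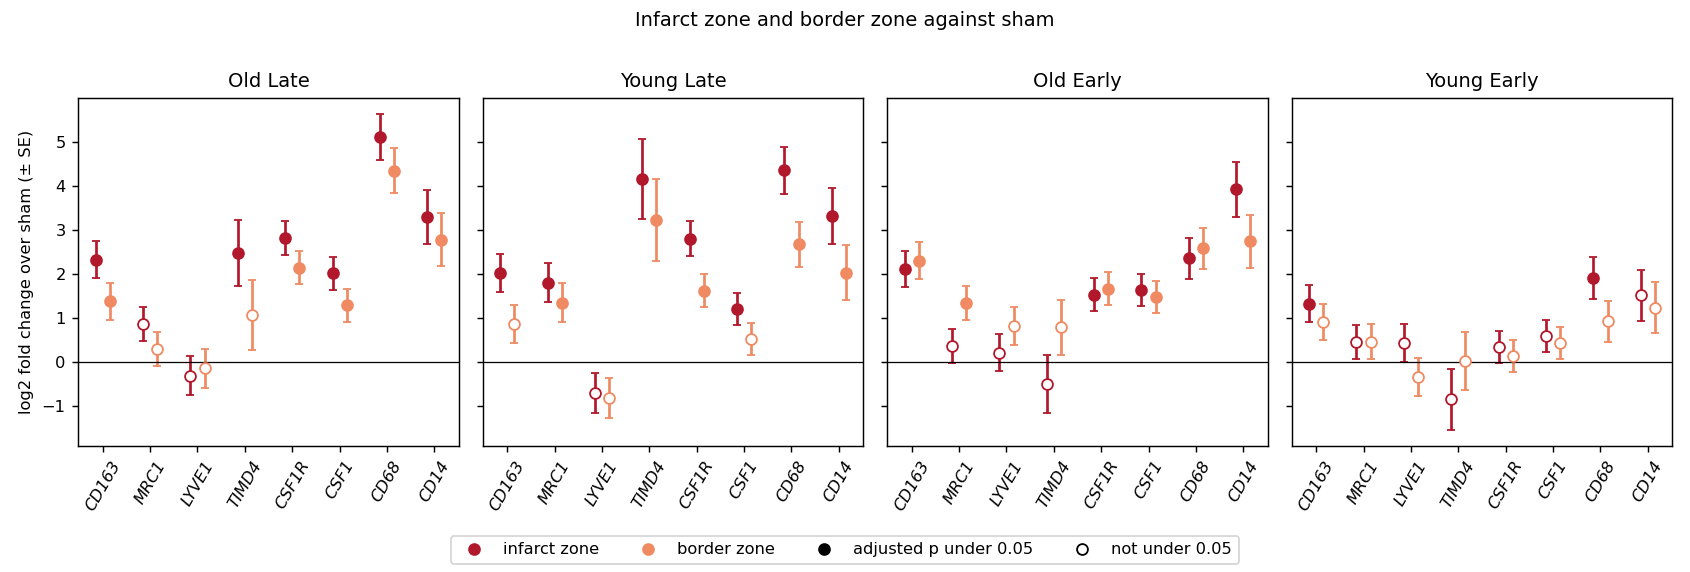
Log2 fold change over sham ± SE (vertical axis) of each member in infarct zone and border zone, by age and time, with filled points at an adjusted p under 0.05. CD68 reached 5.11 in Old Late IZ, and no LYVE1 point is filled.

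CD68, the endosomal and lysosomal marker of phagocytes (ENSSSCG00000017956, chromosome 12, 52874754 to 52877704 on the plus strand), had the largest change of the members in Old Late infarct zone, and in Young Late IZ it was close in value to TIMD4 (4.15 ± 0.91). It shares 121 of its 1674 exonic bases with KDM6B and EIF4A1, so a small part of its counts is uncertain. In Old Late hearts CD68 read 76.0, 61.8 and 87.6 CPM in IZ, 79.5, 20.5 and 32.8 CPM in BZ and 2.55, 1.77 and 2.16 CPM in sham. The Young Late values were 64.1, 26.3 and 27.9 CPM in IZ, 4.11, 25.1 and 7.97 CPM in BZ and 1.75, 2.53 and 1.65 CPM in sham. Every infarct zone library lay far above every sham library of its age, and Young Late BZ ranged widely, with replicate 2 near the infarct zone level. CD68 rose by 5.11 ± 0.53 (adjusted p = 1.83e-08) in Old Late IZ and by 4.36 ± 0.53 (adjusted p = 1.72e-06) in Young Late IZ, 34.6-fold and 20.5-fold. Without Young Late IZ replicate 1, its highest library, the Young change of CD68 was 3.76, below the 4.18 of TIMD4 without the same library.

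On day 1 the rise in CD68 was smaller in value. CD68 in Old Early hearts read 22.3, 11.9 and 20.6 CPM in IZ, 22.5, 16.5 and 25.2 CPM in BZ and 3.25, 3.28 and 4.13 CPM in sham. The Young Early values were 10.7, 11.6 and 10.2 CPM in IZ, 4.22, 6.57 and 5.54 CPM in BZ and 2.97, 2.63 and 3.03 CPM in sham. The groups of infarct zone and sham libraries did not overlap at either age, and the changes were 2.36 ± 0.47 (adjusted p = 0.000371) and 1.91 ± 0.48 (adjusted p = 0.00432). In the border zone CD68 rose by 4.35 ± 0.51 (adjusted p = 3.95e-07) in Old Late hearts (3.62 without replicate 1), by 2.68 ± 0.51 (adjusted p = 0.00105) in Young Late and by 2.59 ± 0.47 (adjusted p = 0.000388) in Old Early, and was not called in Young Early (0.92 ± 0.47, adjusted p = 0.307). The Young Late border zone call rested on replicate 2 in size (1.66 ± 0.44 without it, adjusted p = 0.0287) and ended with the animal as a random block in limma (2.24 ± 0.77, adjusted p = 0.062). Ordered by mean level over the 12 groups, CD68 had 5 pairs of neighbours whose libraries did not overlap, more than any other member. Some of these gaps were narrow, as between 3.25 CPM or more in Old Early sham and 3.03 CPM or less in Young Early sham. The same count was not made over all genes. The 4 sham groups took the lowest places.

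Of 12 lysosomal genes tested, 11 rose in Old Late IZ, 10 in Young Late, 8 in Old Early and 3 in Young Early, with none lower. Their median log2 changes were 2.23, 1.66, 0.93 and 0.40. GPNMB, a glycoprotein of phagocyte lysosomes, averaged 113 CPM in Old Late IZ against 1.15 CPM in sham (6.63 ± 0.76), and CTSL, a lysosomal protease, averaged 18.2 against 0.248 CPM (6.19 ± 0.92). Among 16 general macrophage and monocyte genes, 15, 16, 13 and 10 rose across IZ of Old Late, Young Late, then Old Early and Young Early hearts, with none lower and medians of 3.88, 4.23, 2.23 and 1.88. Lysozyme (LYZ) led that list in both Late groups, averaging 151.5 CPM in Old Late IZ against 0.986 CPM in sham and 39.8 CPM in Young Late IZ against 0.256 CPM in sham. The summed level of that list was 1469 to 2192 CPM in Old Late IZ against 114 to 138 CPM in Old Late sham.

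**Figure D3:**
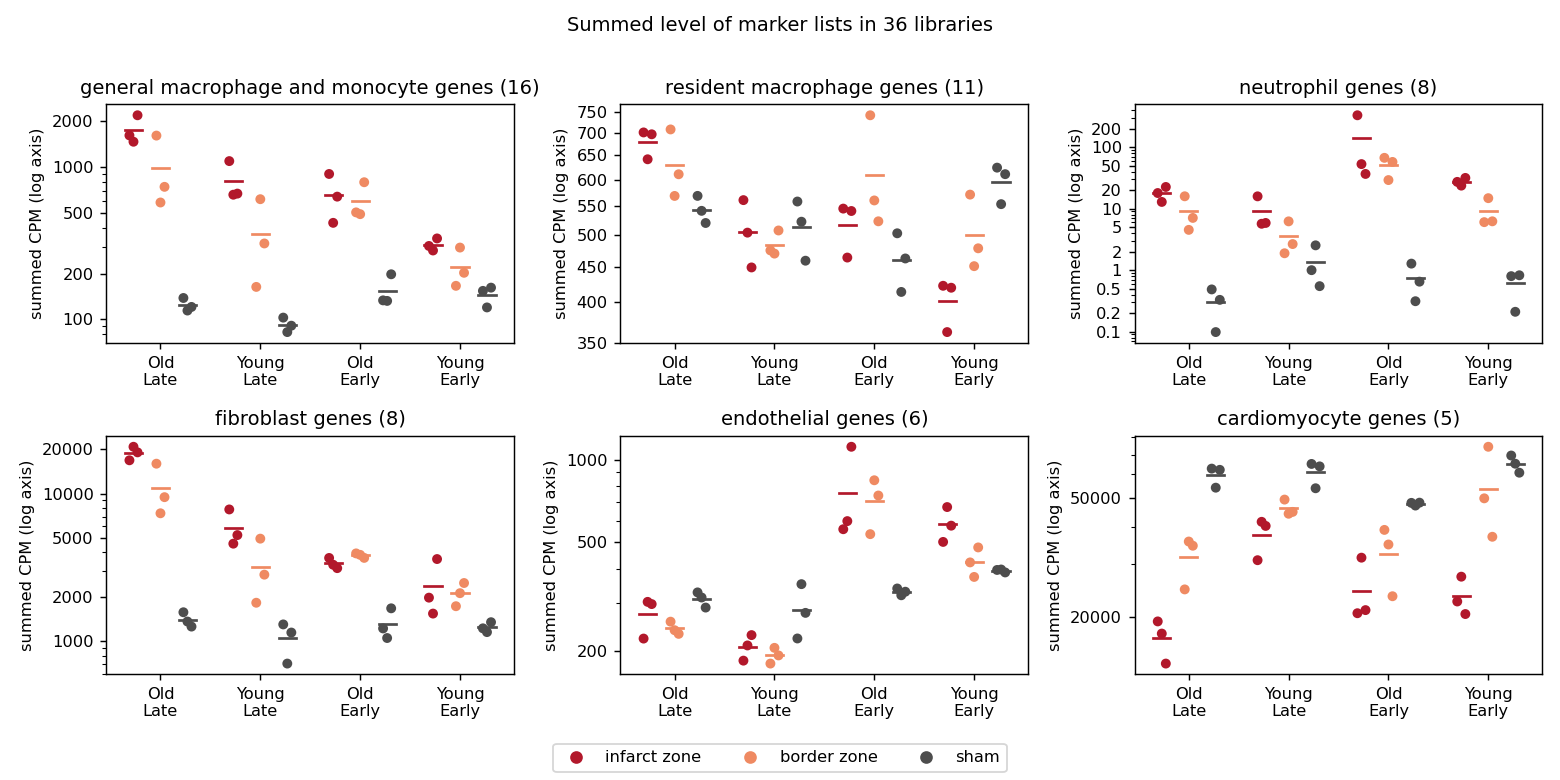
Summed CPM, on log axes, of 6 marker lists in each library, grouped as for the members, with the number of genes of each list in the table in brackets and bars at the group means. General macrophage genes were highest in Old Late IZ, neutrophil genes in Old Early IZ replicate 1 with 330.9 CPM, and cardiomyocyte genes were lowest in Old Late IZ.

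CD14, the monocyte co-receptor that hands bacterial lipopolysaccharide to Toll-like receptor 4 (ENSSSCG00000014369, chromosome 2, 142346211 to 142349349 on the minus strand), was high in Early infarct zone as well. For Old Early hearts the CD14 values were 195, 25.8 and 33.7 CPM in IZ, 53.5, 24.3 and 34.8 CPM in BZ and 4.04, 7.55 and 5.16 CPM in sham. The mean of this infarct zone rested on replicate 1. CD14 rose there by 3.92 ± 0.63 (adjusted p = 3.46e-05), and by 2.41 ± 0.50 (adjusted p = 0.00112) without that library. The same library had the highest neutrophil sum of the series, 330.9 CPM against 53.1 and 36.7 CPM in the other Old Early IZ libraries and 0.312 to 1.28 CPM in their shams, and CD14 is also made by neutrophils. Every neutrophil gene that was tested rose in Old Early IZ, and S100A8, the neutrophil calcium-binding protein, ranged from 7.88 to 111 CPM there. MPO and ELANE, enzymes of neutrophil granules, were at 0 to 0.0412 CPM throughout Old Early IZ. They were named after their values were seen, from a list whose tested genes all rose there, and do not measure neutrophil content. The part of neutrophils in the CD14 level was not tested.

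No other infarct zone had a CD14 library so far from its replicates, though Young Early BZ replicate 2 stood well above the rest of its group. The Old Late libraries had CD14 at 40.3, 27.8 and 37.6 CPM in IZ, 39.7, 14.8 and 19.6 CPM in BZ and 4.37, 2.75 and 3.62 CPM in sham. The Young Late values were 40.7, 22.6 and 22.1 CPM in IZ, 7.58, 18.7 and 9.16 CPM in BZ and 2.90, 2.27 and 3.30 CPM in sham. The Young Early values were 17.6, 24.3 and 33.9 CPM in IZ, 8.66, 40.7 and 13.2 CPM in BZ and 9.99, 5.94 and 10.7 CPM in sham. Late infarct zone libraries had 22.1 CPM or more and Late shams 4.37 CPM or less. The changes in IZ were 3.29 ± 0.62 (adjusted p = 7.86e-05) in Old Late, 3.31 ± 0.64 (adjusted p = 0.000316) in Young Late and 1.52 ± 0.58 (adjusted p = 0.0515) in Young Early hearts. The Young Early value missed the threshold, and 5 of 9 other settings called it. Its libraries did not overlap those of sham, which was so for 46.2% of all genes tested. CD14 rose in the border zone by 2.78 ± 0.61 (adjusted p = 0.000843) in Old Late, 2.03 ± 0.63 (adjusted p = 0.0289) in Young Late and 2.75 ± 0.60 (adjusted p = 0.00191) in Old Early hearts, and was not called in Young Early (1.24 ± 0.58, adjusted p = 0.256). RNA integrity as a covariate brought the Old Late border zone value to 2.13 ± 0.63. The Young Late border zone call ended without sham replicate 1, 2 or 3 (adjusted p = 0.0568, 0.118 and 0.0679), without BZ replicate 2 (1.55 ± 0.66, adjusted p = 0.162) and with the animal block (1.88 ± 0.87, adjusted p = 0.168).

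CD14 works with Toll-like receptors, and of 7 such partner genes tested 6 rose in Old Late IZ, 6 in Young Late, 5 in Old Early and 3 in Young Early, with none lower and medians of 2.47, 2.12, 1.72 and 1.34. TLR2, the receptor of bacterial lipoproteins, averaged 38.8 CPM in Old Late IZ against 2.17 CPM in sham (4.15 ± 0.45), and LY96, the lipopolysaccharide-binding partner of TLR4, averaged 12.7 against 0.927 CPM (3.78 ± 0.46). Of 6 neutrophil genes tested, 5 rose in Old Late, 3 in Young Late, 6 in Old Early and 5 in Young Early IZ. Neutrophil sums were 12.9 to 22.6 CPM in Old Late IZ, 5.68 to 15.9 CPM in Young Late IZ, 36.7 to 331 CPM in Old Early IZ and 23.7 to 31.7 CPM in Young Early IZ.

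CSF1R, the receptor for CSF1 and IL34 (ENSSSCG00000014441, chromosome 2, 151099084 to 151129407 on the minus strand), shares 2813 of its 6666 exonic bases with HMGXB3 on the opposite strand. The kit keeps strand, but the strand setting of the counting is not given in the sources used here, so its level may hold reads of HMGXB3. In Old Late hearts CSF1R read 261, 178 and 246 CPM in IZ, 208, 93.4 and 129.7 CPM in BZ and 40.3, 23.4 and 33.7 CPM in sham. The Young Late values were 159, 108 and 84.3 CPM in IZ, 26.4, 82.2 and 46.1 CPM in BZ and 16.8, 20.3 and 13.4 CPM in sham. Late infarct zone libraries had 84.3 CPM or more and Late shams 40.3 CPM or less. Within each age the border zone mean lay between those of sham and infarct zone. CSF1R rose by 2.81 ± 0.39 (adjusted p = 1.29e-06) in Old Late IZ and by 2.80 ± 0.39 (adjusted p = 7.81e-06) in Young Late IZ, 7.03-fold and 6.98-fold.

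Early after surgery the ages stood apart in value. CSF1R in Old Early hearts read 134, 52.5 and 85.9 CPM in IZ, 119, 77.2 and 103 CPM in BZ and 21.6, 32.1 and 40.4 CPM in sham, and in Young Early hearts it read 46.1, 36.5 and 47.8 CPM in IZ, 29.4, 51.7 and 32.04 CPM in BZ and 33.9, 24.4 and 44.8 CPM in sham. Old Early IZ and sham libraries did not overlap, and Young Early ones did. CSF1R rose by 1.53 ± 0.37 (adjusted p = 0.00237) in Old Early IZ, and its change in Young Early IZ was 0.34 ± 0.37 (adjusted p = 0.515). In the border zone it rose by 2.15 ± 0.38 (adjusted p = 9.05e-05) in Old Late, 1.62 ± 0.38 (adjusted p = 0.00543) in Young Late and 1.67 ± 0.37 (adjusted p = 0.00232) in Old Early hearts, and was not called in Young Early (0.13 ± 0.37, adjusted p = 0.876). Without replicate 2 of the Young Late border zone its call there ended (1.12 ± 0.38, adjusted p = 0.0786).

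CSF1, the secreted growth factor that keeps macrophages alive (ENSSSCG00000037449, chromosome 4, 110176300 to 110198663 on the minus strand), rose in 3 of the 4 infarct zones. For Old Late hearts the CSF1 values were 62.9, 58.0 and 74.5 CPM in IZ, 51.9, 29.5 and 36.1 CPM in BZ and 14.5, 15.6 and 18.03 CPM in sham. The Old Early values were 50.2, 31.1 and 88.2 CPM in IZ, 32.1, 34.8 and 84.8 CPM in BZ and 14.7, 13.7 and 26.1 CPM in sham. Infarct zone libraries did not overlap sham in either Old group, and the highest Old Early libraries of both zones, replicate 3 of each, came from the same pig. CSF1 rose by 2.02 ± 0.37 (adjusted p = 6.35e-05) in Old Late IZ and 1.63 ± 0.37 (adjusted p = 0.00121) in Old Early IZ.

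In Young hearts the changes of CSF1 were smaller in value. CSF1 read 32.3, 38.7 and 36.0 CPM in IZ, 15.3, 33.9 and 17.6 CPM in BZ and 17.0, 8.80 and 20.2 CPM in sham at 1 week. On day 1 it read 23.4, 28.8 and 24.1 CPM in IZ, 17.2, 28.4 and 22.9 CPM in BZ and 18.7, 16.7 and 15.5 CPM in sham. The infarct zone libraries stood above those of sham at both times. The rise was 1.20 ± 0.37 (adjusted p = 0.0143) in Young Late IZ, a call that ended without sham replicate 2, the lowest sham (0.94 ± 0.40, adjusted p = 0.0929), and the change in Young Early IZ was not called (0.58 ± 0.36, adjusted p = 0.239). CSF1 rose in the border zone of Old Late (1.29 ± 0.37, adjusted p = 0.00717) and Old Early hearts (1.47 ± 0.37, adjusted p = 0.00526) and was not called in Young Late (0.52 ± 0.37, adjusted p = 0.3597) or Young Early hearts (0.43 ± 0.36, adjusted p = 0.561). Both border zone calls ended without the highest library, at 1.03 ± 0.39 (adjusted p = 0.0597) without Old Late BZ replicate 1 and 0.88 ± 0.35 (adjusted p = 0.0948) without Old Early BZ replicate 3.

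Of 10 further genes of the CSF1 axis and macrophage transcription factors tested, 7 rose in Old Late IZ, 6 in Young Late, 6 in Old Early and 2 in Young Early, with none lower and medians of 1.54, 1.10, 0.95 and 0.34. RUNX1, a transcription factor of blood cells, had the largest change of the list in all 4 infarct zones. It averaged 41.2 CPM in Old Late IZ against 1.11 CPM in sham (5.20 ± 0.53), 15.6 against 0.364 CPM in Young Late, 16.4 against 1.20 CPM in Old Early and 8.97 against 0.489 CPM in Young Early. IL34, the other ligand of CSF1R and named after its values were seen, ran from 17.7 to 32.05 CPM in Old Late IZ against 29.7 to 36.2 CPM in sham, and from 13.4 to 30.3 CPM in Young Early IZ against 40.7 to 45.4 CPM in sham.

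CD163, the scavenger receptor for haemoglobin bound to haptoglobin (ENSSSCG00000033146, chromosome 5, 63300146 to 63334537 on the plus strand), was called in all 4 infarct zones. The Old Late libraries had CD163 at 63.4, 68.2 and 65.5 CPM in IZ, 50.9, 22.4 and 28.9 CPM in BZ and 15.4, 12.1 and 11.8 CPM in sham. The Old Early values were 89.6, 56.2 and 51.4 CPM in IZ, 113, 41.6 and 69.9 CPM in BZ and 11.2, 18.3 and 16.0 CPM in sham. Infarct zone libraries were well apart from sham in both, and the border zone overlapped the infarct zone only in Old Early hearts. CD163 rose by 2.32 ± 0.42 (adjusted p = 4.97e-05) in Old Late IZ and 2.11 ± 0.42 (adjusted p = 0.000339) in Old Early IZ.

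Young hearts had lower CD163 means than Old hearts at 1 week. CD163 read 50.1, 16.6 and 15.6 CPM in IZ, 7.33, 16.8 and 12.8 CPM in BZ and 4.50, 9.47 and 6.73 CPM in sham there. The Young Early values were 40.3, 31.1 and 60.3 CPM in IZ, 22.2, 43.5 and 32.3 CPM in BZ and 19.1, 14.2 and 19.2 CPM in sham. Young Late IZ replicate 1 stood well above the other infarct zone libraries of its group, which were themselves above every sham. The rise was 2.03 ± 0.43 (adjusted p = 0.000808) in Young Late IZ, or 1.19 ± 0.41 (adjusted p = 0.0386) without that library. In Young Early IZ the rise was 1.33 ± 0.41 (adjusted p = 0.0177), and the call ended without sham replicate 2 (1.20, adjusted p = 0.0692) or IZ replicate 3 (1.03, adjusted p = 0.111). CD163 rose in the border zone of Old Early hearts (2.30 ± 0.42, adjusted p = 0.000389) and in Old Late hearts (1.38 ± 0.41, adjusted p = 0.00974), the second call ending without replicate 1 (0.97 ± 0.43, adjusted p = 0.104), and was not called in Young Late (0.86 ± 0.43, adjusted p = 0.172) or Young Early BZ (0.90 ± 0.41, adjusted p = 0.241).

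Of 5 haem-handling genes tested, 3 rose in Old Late IZ, 2 in Young Late, 1 rose and 1 fell in Old Early, and 1 fell in Young Early. Their medians were 0.90, 0.13, 0.33 and -0.67. FTL, the light chain of the iron store ferritin, averaged 1764 CPM in Old Late IZ against 362 CPM in sham (2.29 ± 0.41), and BLVRB, a biliverdin reductase, averaged 25.6 against 9.84 CPM (1.38 ± 0.38).

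MRC1, the mannose receptor CD206 (ENSSSCG00000011038, chromosome 10, 44107072 to 44226925 on the plus strand), was called in only 1 of 4 infarct zones. In Young Late hearts MRC1 read 4.87, 3.59 and 4.34 CPM in IZ, 2.58, 3.67 and 3.13 CPM in BZ and 0.450, 2.53 and 1.10 CPM in sham. The Old Late values were 6.61, 9.002 and 10.8 CPM in IZ, 8.13, 3.85 and 5.93 CPM in BZ and 6.60, 3.59 and 4.32 CPM in sham. Young Late sham had the lowest mean of the 12 groups, 1.36 ± 1.07 CPM (SD, n = 3), and it held the lowest library of the series, at 0.450 CPM. MRC1 rose by 1.81 ± 0.45 (adjusted p = 0.00306) in Young Late IZ, or 2.50 ± 0.48 without sham replicate 2. In Old Late IZ the change was 0.86 ± 0.39 (adjusted p = 0.0652), and 5 of 9 other settings called it. Its libraries were free of overlap with sham only narrowly, at 6.61 CPM or more against 6.60 CPM or less. Of all genes tested, 61.6% had no overlap in this comparison.

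On day 1 every border zone library of Old hearts held more MRC1 than any infarct zone library of Old hearts. MRC1 in Old Early hearts read 7.09, 5.79 and 7.22 CPM in IZ, 18.4, 12.4 and 8.68 CPM in BZ and 3.72, 5.00 and 6.77 CPM in sham. The Young Early values were 4.24, 5.79 and 9.62 CPM in IZ, 5.32, 9.44 and 5.10 CPM in BZ and 3.88, 5.46 and 5.02 CPM in sham. Neither infarct zone differed from sham beyond the test (0.37 ± 0.39, adjusted p = 0.476, in Old and 0.45 ± 0.39, adjusted p = 0.400, in Young). MRC1 rose by 1.35 ± 0.39 (adjusted p = 0.0138) in Old Early BZ, and this call ended without BZ replicate 1 (1.03, adjusted p = 0.0855), sham replicate 1 (1.16, adjusted p = 0.0743) or sham replicate 2 (1.33, adjusted p = 0.0535). It rose by 1.35 ± 0.45 (adjusted p = 0.0415) in Young Late BZ, a call that ended without BZ replicate 2 (1.23, adjusted p = 0.135), BZ replicate 3 (1.35, adjusted p = 0.0878), sham replicate 1 (0.85, adjusted p = 0.189) or sham replicate 3 (1.27, adjusted p = 0.127). That call also ended with the compared groups fitted alone (1.29, adjusted p = 0.153) and with the animal as a random block (1.67, adjusted p = 0.0725), and the value was 2.05 without sham replicate 2. The changes in Old Late BZ (0.30 ± 0.39, adjusted p = 0.558) and Young Early BZ (0.47 ± 0.39, adjusted p = 0.549) were not called.

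LYVE1, a hyaluronan receptor of lymphatic endothelium that mouse resident macrophages also carry (ENSSSCG00000029886, chromosome 2, 48937153 to 48955802 on the plus strand), was called in none of the 8 comparisons with sham. For Old Late hearts the LYVE1 values were 1.23, 1.84 and 3.49 CPM in IZ, 3.35, 2.06 and 2.00 CPM in BZ and 2.39, 1.62 and 4.18 CPM in sham. The Young Late values were 2.16, 2.17 and 2.53 CPM in IZ, 2.72, 1.87 and 1.76 CPM in BZ and 2.95, 3.33 and 4.87 CPM in sham. Young Late infarct zone and border zone libraries were all lower than those of sham, and Old Late groups overlapped. The changes were -0.31 ± 0.44 (adjusted p = 0.583) in Old Late IZ (0.30 with library totals in place of TMM) and -0.71 ± 0.46 (adjusted p = 0.252) in Young Late IZ.

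On day 1 LYVE1 levels were higher in value than at 1 week. The Old Early libraries had LYVE1 at 6.60, 3.97 and 9.12 CPM in IZ, 13.3, 9.51 and 7.16 CPM in BZ and 5.96, 3.85 and 7.15 CPM in sham. The Young Early values were 7.03, 5.08 and 9.46 CPM in IZ, 6.21, 1.39 and 4.95 CPM in BZ and 3.94, 5.36 and 6.74 CPM in sham. Among the Early zones only the Old border zone did not overlap its shams, and narrowly, at 7.16 CPM or more against 7.15 CPM or less. Its change was 0.82 ± 0.43 (adjusted p = 0.175). The other changes were 0.21 ± 0.43 (adjusted p = 0.725) in Old Early IZ and 0.43 ± 0.43 (adjusted p = 0.474) in Young Early IZ, and -0.14 ± 0.44 (adjusted p = 0.824), -0.81 ± 0.46 (adjusted p = 0.233) and -0.35 ± 0.43 (adjusted p = 0.704) in Old Late, Young Late and Young Early BZ. No pair of neighbours in the order of the 12 group means was free of overlap.

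Because lymphatic vessels also carry LYVE1, their markers were read beside it. Of 6 lymphatic endothelial genes tested, 2 rose and 1 fell in Old Late IZ, 2 rose in Young Late, 1 rose and 1 fell in Old Early and 2 rose in Young Early. PROX1, the lymphatic transcription factor that heart muscle also expresses, averaged 3.26 CPM in Old Late IZ against 14.9 CPM in sham (-2.19 ± 0.50), whereas CCL21, a chemokine of lymphatic endothelium, averaged 47.6 against 11.1 CPM (2.10 ± 0.65). Summed lymphatic genes were 59.4 to 145 CPM in Old Late IZ against 43.0 to 55.8 CPM in sham. Of 6 blood endothelial genes tested, 3 fell in Old Late IZ and 2 in Young Late, while 3 rose in Old Early and 1 in Young Early. Of 7 hyaluronan genes tested 5, 4, 5 and 5 rose across IZ of Old Late, Young Late, then Old Early and Young Early hearts, among them CEMIP, which breaks hyaluronan down, at 11.7 CPM in Old Late IZ against 0.0612 CPM in sham. The part of lymphatic or blood vessels in the LYVE1 level was not tested.

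TIMD4, the receptor for phosphatidylserine on dying cells that marks resident macrophages in mouse hearts (ENSSSCG00000017062, chromosome 16, 66253517 to 66292961 on the plus strand), was the scarcest member, with 0 to 61 counts in a library. In Old Late hearts TIMD4 read 0.844, 0.669 and 0.853 CPM in IZ, 0.384, 0.198 and 0.297 CPM in BZ and 0.0810, 0.246 and 0.0939 CPM in sham. The Young Late values were 1.17, 1.42 and 1.30 CPM in IZ, 0.248, 1.43 and 0.431 CPM in BZ and 0.150, 0 and 0 CPM in sham. Late shams were the lowest groups, with 9 counts in all in Old and 3 in Young, 2 of the 3 Young libraries having none. Of these, replicate 2 also had the lowest library total of the series, 8113200 counts. TIMD4 rose by 2.48 ± 0.75 (adjusted p = 0.00768) in Old Late IZ and 4.15 ± 0.91 (adjusted p = 0.00105) in Young Late IZ. On summed counts, 64 in Young Late IZ against 3 in sham, the ratio was 17.97 with an exact 95% interval of 5.88 to 89.5, and in Old Late IZ, 78 against 9 counts, it was 5.86 (2.93 to 13.3). These intervals cover counting error only.

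The Old Late infarct zone call of TIMD4 ended with RNA integrity as a covariate (1.91 ± 0.79, adjusted p = 0.0539) and stood at 3.10 without sham replicate 2. Without the only Young Late sham library that had counts the fitted value was 7.94, which is no bound because the remaining shams were at 0. In the border zone TIMD4 rose in Young Late hearts (3.23 ± 0.94, adjusted p = 0.0213), with a ratio of summed counts of 8.75 (2.79 to 44.2). That call ended without BZ replicate 2 (2.26, adjusted p = 0.169), sham replicate 2 (2.94, adjusted p = 0.086) or sham replicate 3 (2.67, adjusted p = 0.0959), and the value was 7.01 without sham replicate 1. It was not called in Old Late BZ (1.07 ± 0.80, adjusted p = 0.296).

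On day 1 TIMD4 gave no call. TIMD4 in Old Early hearts read 0.536, 0.520 and 0.464 CPM in IZ, 1.95, 1.17 and 0.622 CPM in BZ and 0.585, 0.677 and 0.879 CPM in sham. The Young Early values were 0.155, 0.767 and 0.265 CPM in IZ, 0.465, 1.39 and 0.183 CPM in BZ and 0.856, 0.263 and 0.894 CPM in sham. The Old Early infarct zone libraries all lay below their shams, and the border zone reached higher than either. The changes were -0.50 ± 0.65 (adjusted p = 0.577) and -0.85 ± 0.69 (adjusted p = 0.372) in Old and Young Early IZ, and 0.79 ± 0.62 (adjusted p = 0.382) and 0.02 ± 0.66 (adjusted p = 0.991) in Old and Young Early BZ.

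Other genes known from resident macrophages were mixed. Of 11 tested, 8 rose and 1 fell in Old Late IZ, 6 rose and 1 fell in Young Late, 4 rose and 1 fell in Old Early and 2 rose and 3 fell in Young Early, with medians of 1.54, 0.80, 0.64 and 0.41. VSIG4, a complement receptor of tissue macrophages, averaged 69.3 CPM in Old Late IZ against 6.23 CPM in sham (3.47 ± 0.42) and 34.5 against 2.73 CPM in Young Late (3.68 ± 0.45). CD209, a lectin, averaged 1.09 CPM in Young Early IZ against 4.71 CPM in sham (-2.16 ± 0.70). MERTK, a receptor kinase for dying cells, rose in all 4 infarct zones, by 3.20 ± 0.43 in Old Late, 2.28 ± 0.45 in Young Late, 1.63 ± 0.41 in Old Early and 1.85 ± 0.44 in Young Early, among 8 clearance genes of which 3, 2, 3 and 3 rose and 1, 1, 1 and 2 fell.

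Genes of other cell types changed in the same comparisons. Of 8 fibroblast genes 7, 7, 7 and 4 rose across IZ of Old Late, Young Late, then Old Early and Young Early hearts, and of 5 cardiomyocyte genes 5, 4, 4 and 4 fell. Of 8 lymphocyte and dendritic cell genes tested, 8 rose in Old Late IZ, 2 in Young Late, 2 in Old Early and 1 in Young Early. In Old Late hearts fibroblast genes summed to 16840 to 20790 CPM in IZ against 1260 to 1575 CPM in sham, and cardiomyocyte genes to 13920 to 19280 CPM in IZ against 54180 to 62780 CPM in sham. How far these shifts in makeup enter the levels of the 8 members was not tested.

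Young Late libraries were the only ones of more than 1 batch within a group. Within batch 1 (1 library each) and batch 2 (2 each), the IZ minus sham log2 differences (pseudocount 0.1 CPM) were 4.61 and 3.92 for CD68, 4.11 and 2.82 for CD14, 2.96 and 2.66 for CSF1R, 1.87 and 1.01 for CSF1, 2.39 and 1.53 for CD163, 0.92 and 2.32 for MRC1, -0.61 and -0.67 for LYVE1 and 3.67 and 3.21 for TIMD4. For the border zone the same differences were 1.62 and 2.52 for CD68, 1.97 and 1.91 for CD14, 1.18 and 1.63 for CSF1R, 0.29 and 1.97 for MRC1 and 2.41 and 2.21 for TIMD4. Every one of these kept its sign in both batches.

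Whether the response over sham differed between 1 week and 1 day was tested as a difference of differences. In Young IZ 3 members had a larger response at 1 week (12.4% of all genes were called in either direction): TIMD4 (5.00 ± 1.16, adjusted p = 0.00880), CSF1R (2.46 ± 0.53, adjusted p = 0.00553) and CD68 (2.45 ± 0.69, adjusted p = 0.0218). In Old IZ it was 1 member (4.01% of all genes), CD68 (2.76 ± 0.66, adjusted p = 0.0143). No member was called in Old BZ (1.09% of all genes) or Young BZ (0.234%), where 1 and 3 of 8 had an unadjusted edgeR p under 0.05 (12.6% and 16.9% of all genes) and neither DESeq2 nor limma called any. Without Young Early BZ replicate 2, TIMD4 (4.26 ± 1.14, adjusted p = 0.0227) and CSF1R (1.79 ± 0.55, adjusted p = 0.0366) were called in Young BZ. The CSF1R call in Young IZ held without each library in turn.

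The shams that enter these differences also differed in value. Their TIMD4 counts were 3 in Young Late against 33 in Young Early hearts. CSF1R averaged 16.8 CPM in Young Late sham against 34.4 CPM in Young Early sham (-1.04 ± 0.38, adjusted p = 0.0751), a difference called with DESeq2 (adjusted p = 0.0495) and with the compared groups alone (adjusted p = 0.034). CD68 averaged 1.98 CPM in Young Late sham against 2.87 CPM in Young Early sham (-0.58 ± 0.52, adjusted p = 0.477), and 2.16 CPM in Old Late sham against 3.55 CPM in Old Early sham (-0.72 ± 0.48, adjusted p = 0.705). The TIMD4 difference was 8.79 when Young Late sham replicate 1 was dropped, and 5.77 when Young Early IZ replicate 2 was. The Young CD68 call ended without Young Late IZ replicate 1 (1.83, adjusted p = 0.0857), Young Late sham replicate 3 (2.34, adjusted p = 0.0522) or Young Early IZ replicate 3 (2.41, adjusted p = 0.0505), with library totals (2.07, adjusted p = 0.0578), with RNA integrity as a covariate (2.23, adjusted p = 0.0692) and with the animal block (2.36, adjusted p = 0.121). Of the settings run, the Old CD68 call ended only with the animal block (2.81 ± 0.87, adjusted p = 0.0666). With batch as a term the Young differences were 5.13 for TIMD4, 2.44 for CSF1R and 2.37 for CD68.

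**Figure D4:**
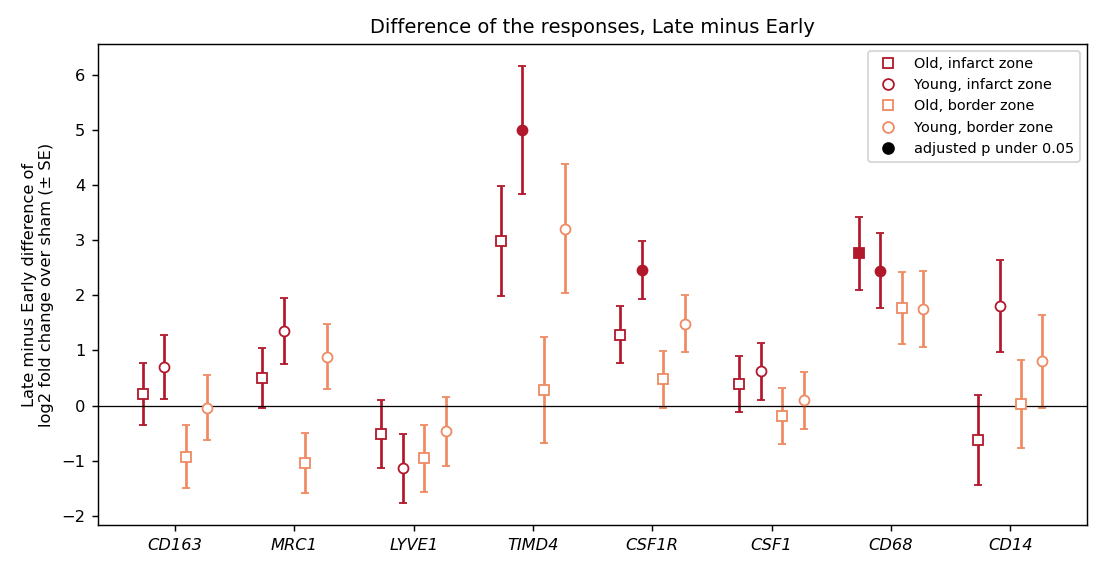
Late minus Early difference of the log2 fold change over sham ± SE (vertical axis) for each member, in Old (squares) and Young (circles) hearts and in infarct zone and border zone, with filled symbols at an adjusted p under 0.05. The 4 filled symbols are CD68 in Old IZ (2.76) and TIMD4 (5.00), CSF1R (2.46) and CD68 (2.45) in Young IZ.

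The balance of CD68 to CD163 within a library differed by time; this comparison was picked after the values were seen and has no test. The log2 ratio of CD68 counts to CD163 counts was -0.14 to 0.42 in Old Late IZ and 0.36 to 0.83 in Young Late IZ. It was -2.25 to -1.32 in Old Early IZ and -2.56 to -1.43 in Young Early IZ, and -2.77 to -1.36 over all 12 shams. Late border zones gave -0.13 to 0.64 in Old and -0.83 to 0.58 in Young hearts. Every Late infarct zone and border zone library was above every Early and sham library. The ratio of LYVE1 to MRC1 counts was -2.43 to -1.64 in Old Late IZ against -1.47 to -0.05 in Old Late sham, and -1.18 to -0.73 in Young Late IZ against 0.40 to 2.71 in sham. The Young Late sham ratios rest on few counts, 59, 25 and 71 of LYVE1 and 9, 19 and 16 of MRC1.

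**Figure D5:**
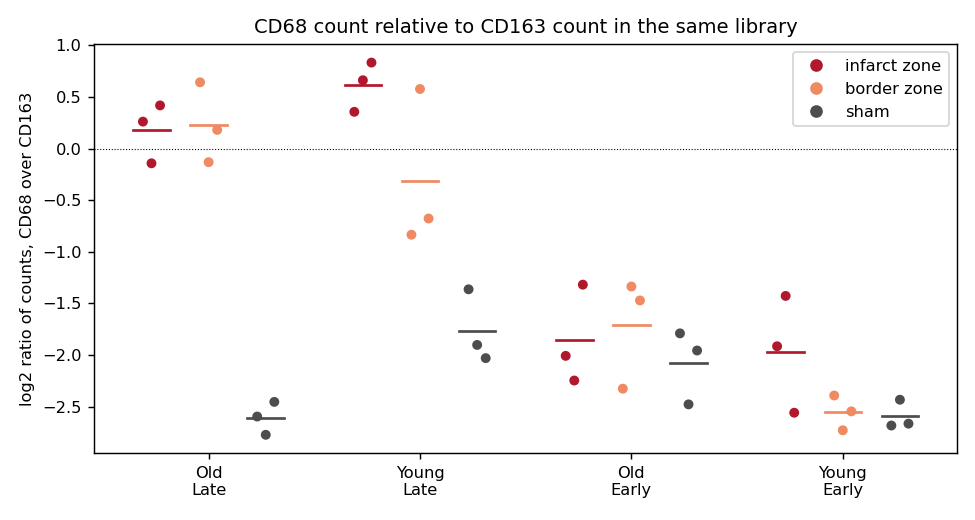
Log2 ratio of the CD68 count to the CD163 count (vertical axis) in each library, by age, time and zone, with bars at group means and a dotted line at equal counts. Late infarct zone libraries sat at -0.14 to 0.83, all shams at or below -1.36.

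Whether the response differed between hearts injured at 14 and at 2 days was also tested directly, and no member was called. The share of all genes called in either direction was 3.53% in Late IZ, 0.977% in Late BZ, 0.0344% in Early IZ and 0.199% in Early BZ. Unadjusted edgeR p-values under 0.05 were found for 0, 1, 3 and 3 of 8 members in these 4 comparisons, beside 20.5%, 17.6%, 25.6% and 17.7% of all genes, limma with the animal block called none, and DESeq2 called 1, CD14 in Early IZ. The smallest adjusted p was that of CD14 in Early IZ (2.41 ± 0.81, adjusted p = 0.0956), and this difference rested on single libraries. It was 0.90 ± 0.67 (adjusted p = 0.505) without Old Early IZ replicate 1, the library of high neutrophil sum, and 2.84 (adjusted p = 0.0284) without replicate 2. In Early IZ CSF1R differed by 1.19 ± 0.52 (adjusted p = 0.156), or 0.80 without Old Early IZ replicate 1, and in Early BZ by 1.53 ± 0.52 (adjusted p = 0.127), and CD68 differed by 1.67 ± 0.69 (adjusted p = 0.198) in Late BZ. Without Young Early BZ replicate 2, CSF1R (1.83, adjusted p = 0.0299) and CD14 (2.44, adjusted p = 0.0418) in Early BZ were called, and without Young Late BZ replicate 2, CD68 in Late BZ was (2.68, adjusted p = 0.0186). In Late IZ the members' differences ran from -1.67 ± 1.27 for TIMD4 to 0.82 ± 0.51 for CSF1. These missed thresholds do not show that the ages respond alike.

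Sham hearts gave the members' levels without infarct, at 4 ages. In Young shams 3 of 8 members were lower at 1 week, when pigs were 9 days old, than at 3 days of age (9.18% of all genes called in either direction). MRC1 fell by 1.97 ± 0.45 (adjusted p = 0.00992) on the log2 scale, TIMD4 by 3.19 ± 0.95 (adjusted p = 0.0344) and CD163 by 1.37 ± 0.43 (adjusted p = 0.0421). On summed counts TIMD4 had a ratio of 0.110 (exact 95% interval 0.0217 to 0.352). The MRC1 call held without each library in turn, and its value was -2.66 without Young Late sham replicate 2. The CD163 call ended without any 1 of the 6 libraries (adjusted p = 0.0598 to 0.112) and under 5 other settings, batch as a term among them (-0.80 ± 0.45, adjusted p = 0.26). The TIMD4 call ended without Young Early sham replicate 1 or 3 (adjusted p = 0.1006 and 0.1004) or Young Late sham replicate 2 or 3 (adjusted p = 0.13 and 0.125), with RNA integrity as a covariate (-2.89, adjusted p = 0.0733) and with the animal block (-2.98, adjusted p = 0.053). Its value was -6.98 without Young Late sham replicate 1.

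At 21 against 9 days of age 1 member was called between Late shams (10.4% of all genes), MRC1, which was higher in Old (1.99 ± 0.44, adjusted p = 0.00800). That call ended without Young Late sham replicate 1 (1.49, adjusted p = 0.054) and with RNA integrity as a covariate (1.91, adjusted p = 0.0658), and its value was 2.68 without Young Late sham replicate 2. Between Old Late and Old Early shams none was called (0.0275% of all genes), with 2 of 8 at an unadjusted edgeR p under 0.05 (9.09% of all genes), and none by DESeq2. TIMD4 was lower in value there too (-2.34 ± 0.76, adjusted p = 0.3003), at 9 counts in Old Late against 47 in Old Early shams, a ratio of 0.185 (0.0798 to 0.382), and was called with the compared groups alone (-2.37, adjusted p = 0.0299). Between Old Early and Young Early shams none was called either, against 30.2% of all genes, with 0 of 8 at an unadjusted edgeR p under 0.05 (43.7% of all genes) and none by DESeq2. With batch as a term, which the Young Late libraries allow, these Early shams differed in 760 genes higher and 606 lower, against 2476 and 1915 without it, and no member was called (-0.59 for CD14 to 0.71 for CD68). Old Late shams were the only shams of batch 3, so in comparisons with them age or time and batch cannot be told apart.

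Infarct zone and border zone of the same pigs were compared with the animal as a block. No member was called, whereas 1.27% of all genes were in Old Late, 0.0% in Young Late, 0.0% in Old Early and 10.2% in Young Early hearts. At an unadjusted edgeR p under 0.05 there were 3, 5, 2 and 1 of 8 members, beside 19.6%, 9.7%, 5.91% and 30.5% of all genes, and DESeq2 called CSF1 in Old Late and CD68 in Young Late hearts. The smallest adjusted p was that of CSF1 in Old Late hearts (0.74 ± 0.20, adjusted p = 0.0750), whose zones did not overlap. CD68 differed by 1.88 ± 0.55 (adjusted p = 0.390) in Young Late and by 1.01 ± 0.51 (adjusted p = 0.198) in Young Early hearts, with no overlap in either. In Old Early hearts MRC1 (-0.93 ± 0.29, adjusted p = 0.823) and TIMD4 (-1.19 ± 0.46, adjusted p = 0.823) were lower in every infarct zone library than in any border zone library. In the comparisons with 0 genes called, 1396 genes in Young Late and 850 in Old Early hearts had an unadjusted p under 0.05, and DESeq2 called 58 higher and 21 lower in Young Late and 4 higher and 1 lower in Old Early hearts. The 3 Young Late pigs' zones did not deviate together (r of -0.201 to -0.039), unlike those of the other 9 pigs (0.454 to 0.672). In the Young Late pigs of replicates 1 and 3, IZ and BZ were prepared in different batches, whereas the other 9 pigs had both zones in the same batch. The part of batch in these r was not tested.

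Per length, the members lay far apart. In Old Late IZ the mean level was 44.9 CPM per kilobase of exon for CD68, 34.3 for CSF1R, 11.5 for CD14, 10.8 for CD163, 9.46 for CSF1, 1.42 for MRC1, 0.599 for TIMD4 and 0.518 for LYVE1. In Old Late sham CSF1R was first at 4.87 CPM per kilobase, then CSF1 at 2.33, CD163 at 2.16, CD68 at 1.29, CD14 at 1.17, MRC1 at 0.781, LYVE1 at 0.646 and TIMD4 at 0.107. The means of CSF1R, CSF1 and CD68 were highest in Old Late IZ, those of CD163, MRC1 and LYVE1 in Old Early BZ, that of CD14 in Old Early IZ and that of TIMD4 in Young Late IZ. Young Late sham had the lowest mean for 7 of the 8, LYVE1 being lowest in Young Late BZ.

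Across the 36 libraries, which fall into 12 groups and hold both zones of the infarcted pigs, log2 CPM of the members moved together to differing degrees. As a description, Pearson's r was 0.953 between CSF1R and CD68, 0.881 between CD14 and CD163, 0.834 between CSF1 and CSF1R and 0.827 between CD163 and MRC1. LYVE1 stood apart, with r of -0.183 to 0.294 to the other members. The genes most like each member were LCP1 (0.973), GIMAP6 (0.972) and FCER1G (0.97) for CD68, VSIG4 (0.973), ARHGAP4 (0.972) and CD37 (0.97) for CSF1R, and ALOX5AP (0.961), CORO1A (0.953) and GPSM3 (0.951) for CD14. For CD163 they were F13A1 (0.914), SLA (0.913) and LASP1 (0.902), and for CSF1 MAST3 (0.932), WAS (0.918) and ARHGAP30 (0.913). The likeness was weaker for LYVE1, with MPIG6B (0.817), CDH5 (0.791) and SHE (0.762), for MRC1, with PDCD4 (0.795), LAMB1 (0.786) and ARRDC4 (0.768), and for TIMD4, with C1QA (0.763) and C1QC (0.756) among the nearest.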

How the data were processed

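Gene counts of 36 libraries were deposited as whole-number read counts from featureCounts (Subread 1.5.1), after bcl2fastq 2.19.0.316, Trimmomatic 0.36 and STAR, per the submitters' processing notes. Libraries were stranded and poly(A)-selected, per the labels' protocols, and the build, annotation release and strand setting are not given in the sources used here. Genes were kept by edgeR 4.0.16's filter over 12 groups (minimum count 10, minimum total 15), scaled by TMM and fitted with its robust quasi-likelihood test in R 4.3.3 (14537 genes, 24 residual degrees of freedom), with Benjamini-Hochberg adjustment over all genes. IZ against BZ used 24 libraries with the pig as a block (14386 genes, 8 residual degrees of freedom). SEs came from the fold change and F. The fit was tested on simulated counts.

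Library totals ran from 8113200 to 39789874 counts, which limits scarce genes such as TIMD4 most. The exact intervals cover counting error only, and every pair of replicates differed by more than that. Replicate numbers follow accession order and were not used to pair libraries. IZ and BZ of the same number nevertheless come from the same pig in every group except Old Late. IZ and BZ libraries were paired by the pig named in their titles, with r of their deviations from group means of 0.454 to 0.672 in 9 pigs and -0.201 to -0.039 in the 3 Young Late pigs. The Young Late pigs of replicates 1 and 3 had their zones prepared in different batches. For 1 library, Old Late BZ replicate 3, title and animal label name different pigs. Each sham group holds 3 pigs.

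Alternatives were DESeq2 1.42.0 size factors and test, library totals, no count filter, compared groups alone, batch or RNA integrity as a covariate, no mitochondrially encoded genes, each library left out, and voom in limma 3.58.1 with animals as random blocks. The members and gene lists were chosen with earlier results of these data known. Beside the members, the text names genes from the lists among the 2 called genes of largest change in a comparison (IL34, MPO and ELANE were named after their values were seen), and the 3 genes most like each member by Pearson's r of log2 CPM, of which 1 is not reported here.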

Additional observations from a re-analysis of the deposited data

Results flagged for a closer look

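In 4 cases the response of a member over sham differed between 1 week and 1 day by the test of that difference itself, with edgeR and Benjamini-Hochberg adjustment over all genes. In Young infarct zone the Late minus Early difference was 5.00 for TIMD4, 2.46 for CSF1R and 2.45 for CD68 on the log2 scale. In Old infarct zone it was 2.76 for CD68. In each case the response was the larger at 1 week, with 3 libraries in each of the 4 groups that enter the difference. For TIMD4 the value rests on 3 counts over the Young Late shams. Both CD68 differences lost their call with the animal as a random block, at 2.36 (adjusted p = 0.121) in Young and 2.81 (adjusted p = 0.0666) in Old hearts.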

How the results depend on the processing

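Against sham the members' calls were 20 in IZ and 16 in BZ. They ran from 20 to 25 in IZ and from 13 to 16 in BZ over the alternatives, and from 19 to 21 and 12 to 16 with a library left out. No member's called direction reversed under any setting run. With animals as random effects (the replicate block) the counts were 21 in IZ, 13 in BZ, 2 for Late minus Early against 4, and 2 in shams against 4. Old minus Young, with 0 calls, gave 1 with the DESeq2 test and 0 to 2 with a library left out. Late minus Early gave 3 to 6, and shams gave 2 to 4, with a library left out. Shams gave 1 with RNA integrity as a covariate and 7 with the compared groups alone. The latter setting filtered on the compared libraries only, which left some member tests out, in shams too. IZ against BZ, with 0 calls, gave 1 with library totals, 3 with the compared groups alone, 2 with the DESeq2 test, and 0 with no replicate block, with animals taken from the individual label and without each library. Single calls ended 35 times when a library was left out and 17 times under other settings, and were gained 9 and 31 times. Library totals moved the median of all genes by up to 0.61 (Young Early IZ). There MRC1, CSF1R, CSF1 and CD14 then passed the threshold, and CD163 and CD68 read 2.01 and 2.51. Batch as a term could not be fitted for shams of batch 3. The causes were not tested. Depth limits TIMD4 most, at 0 to 61 counts a library.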
